A study of Mus musculus with 8 samples.

Results

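Glycolysis and hypoxia genes were examined in bulge cells of mouse back skin on the way to tumour formation. The set holds 37 genes chosen by name. Of these, 18 encode glycolytic enzymes, among them the enzymes that control phosphofructokinase. The 19 others belong to the response to low oxygen, and most are known to be induced by it. Of the 37, 33 were measured, among 17097 genes in all: 15 of the glycolytic enzymes and 18 of the other hypoxia genes. Gpi1, Eno1 and P4ha1 had no probe set named for them here, and the probe set of Pgam1 is shared with a pseudogene, so these 4 were not analysed here.

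Hair follicle stem cells reside in the bulge. Of 8 arrays, 4 were labelled G9a cKO, a conditional knockout of G9a, the histone methyltransferase encoded by Ehmt2. The other 4 were labelled G9a WT. The titles name an animal for each array without an identifier, so the 8 arrays were read as 8 animals. All 8 had received DMBA, a mutagen (0.25 mg/ml), and TPA, a tumour promoter (0.02 mg/ml), each in 200 µl of acetone, once a week over 6 weeks, starting at 8 weeks of age. The labels give their age as 15 weeks and the tissue as epidermis. No untreated skin was part of the series, so every value below compares treated knockout with treated wild type cells. The sources used here do not give the driver of the knockout, the deleted part of the gene or how the bulge cells were isolated.

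Glycolysis splits glucose into pyruvate, and lactate dehydrogenase turns pyruvate into lactate when the mitochondria do not take it up. When oxygen is scarce, prolyl hydroxylases no longer mark the alpha subunits of the hypoxia-inducible factors (HIF) for destruction. The stabilised factor binds a short core sequence in DNA and raises transcription of glucose transporters, glycolytic enzymes, angiogenic signals and pH-regulating enzymes. The same program runs in many tumours, and hair follicle stem cells of normal skin are known for high glycolysis and lactate production.

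The core of the HIF binding site is read as ACGTG or GCGTG. RefSeq start site windows of GRCm38.p6, each from 250 bases before to 50 bases after an annotated transcription start, were found for 34 of the 37 genes, in 50 windows. The windows below are shown because Car9 and Pgk1 were the genes of the set that passed the test across all genes. A window of Ldha, chosen after the values of Ldha were seen, has more ACGTG matches than either, and Ldha did not pass. Another Ldha window, not shown, has 0 ACGTG matches. Capitals mark every match to ACGTG or GCGTG on either strand (CACGT and CACGC on the strand shown).

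Car9, chr4:43506776-43507075, plus strand: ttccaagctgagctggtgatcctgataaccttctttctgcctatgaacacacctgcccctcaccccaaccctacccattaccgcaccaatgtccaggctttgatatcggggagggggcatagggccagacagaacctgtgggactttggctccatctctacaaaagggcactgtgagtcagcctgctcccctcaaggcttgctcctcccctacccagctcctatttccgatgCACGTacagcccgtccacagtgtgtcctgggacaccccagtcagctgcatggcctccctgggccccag
Pgk1, chrX:106186850-106187149, plus strand: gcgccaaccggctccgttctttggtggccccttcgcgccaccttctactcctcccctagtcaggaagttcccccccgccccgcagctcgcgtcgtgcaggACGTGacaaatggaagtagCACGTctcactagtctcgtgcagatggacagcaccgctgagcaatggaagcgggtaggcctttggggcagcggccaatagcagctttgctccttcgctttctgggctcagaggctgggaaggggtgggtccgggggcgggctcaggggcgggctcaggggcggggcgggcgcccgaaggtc
Ldha, chr7:46845554-46845853, plus strand: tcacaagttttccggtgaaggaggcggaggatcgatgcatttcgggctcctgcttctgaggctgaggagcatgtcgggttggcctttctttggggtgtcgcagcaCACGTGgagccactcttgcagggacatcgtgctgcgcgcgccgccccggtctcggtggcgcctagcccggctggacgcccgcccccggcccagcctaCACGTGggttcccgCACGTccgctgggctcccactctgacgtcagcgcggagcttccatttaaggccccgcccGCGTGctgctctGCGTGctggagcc

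The Car9 window had 1 match to ACGTG, whose first base lies 18 bases before the start site. The Pgk1 window had 2, at separate places. The Ldha window shown had 5, with 2 further GCGTG matches. Its 5 include 2 CACGTG sites, each of which counts on both strands. ACGTG on either strand was found in at least 1 window of 11 of 18 glycolytic enzymes (61.1%) and of 13 of the 16 other hypoxia genes with a window (81.2%). Among all genes with a window it was found in 21.8%, and among those tested on the arrays in 26.1%. GCGTG was found in 61.8% of the genes of the set and in 47.7% of the genes tested. CACGTG, the E-box bound by MYC, MXI1 and BHLHE40, contains ACGTG and was found in 5 of the 34 genes (14.7%) against 10.2% of the genes tested. Such matches are letters in a window, not measured binding, and the set was chosen largely as HIF-inducible, so its share is a description.

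Each array gave log2 expression values made by RMA, in which background is corrected, arrays are brought to 1 distribution and the probes of a probe set are summarised. Array medians lay within 5.87 to 5.95. The targeted gene was checked first. One Ehmt2 probe set read 6.44, 5.54, 5.80 and 5.64 in cKO replicates 1 to 4 and 9.29, 8.89, 8.93 and 9.15 in WT replicates 1 to 4, while the other read 8.41 ± 0.02 and 8.41 ± 0.01 (mean ± SD, n = 4). Bulge markers were high in all arrays, with a mean level over 10 genes (Cd34, Krt15, Lgr5 and others) of 10.90 to 10.96 in cKO and 10.95 to 11.02 in WT, and 0 of the 10 passed the test on the probe set used, although 1 further probe set of Nfatc1 was lower (log2 change -0.52, limma p of 0.0345 adjusted over all probe sets). Across 17097 genes limma called 143 lower in cKO (0.836%) and 329 higher (1.92%), at a Benjamini-Hochberg adjusted p under 0.05. Without WT replicate 4, which stood apart from the other WT arrays in immediate early genes, 294 were lower and 502 higher. The other fits that left out an array gave fewer calls, down to 67 lower and 195 higher when WT replicate 3 was dropped and 68 and 190 when cKO replicate 2 was, except that without cKO replicate 1 (151 and 352). With so few arrays, a missed threshold does not show equal levels. In bulk cells, fewer cells of one kind and less RNA per cell cannot be told apart.

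Few of the hypoxia and glycolysis genes passed the test, and those that did were lower in cKO. Of the 15 glycolytic enzymes measured, 1 fell (Pgk1) and none rose, and of the 18 other hypoxia genes 1 fell (Car9) and none rose. That is 2 of 33 lower, or 6.06%, where 0.836% of all genes were lower and 2.76% were called in either direction. The median log2 change was -0.03 for the glycolytic enzymes and -0.11 for the other hypoxia genes, against 0.0027 over all genes tested. The latter median was -0.05 without cKO replicate 4 and -0.02 when all probe sets of a gene were averaged.

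At an unadjusted limma p under 0.05, 6 of the 33 genes lay lower in cKO (18.2%, against 5.57% of all genes) and none lay higher (8.16% of all genes). In 4 genes all cKO arrays lay below all WT arrays, which are Pgk1, Slc2a1, Vegfa and Car9 (12.1%, against 3.09% of all genes). In none did all cKO arrays lie above, where 5.15% of all genes did. The genes of the set were chosen with earlier results of these arrays known, so these shares describe the set and do not test it.

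**Figure D1:**
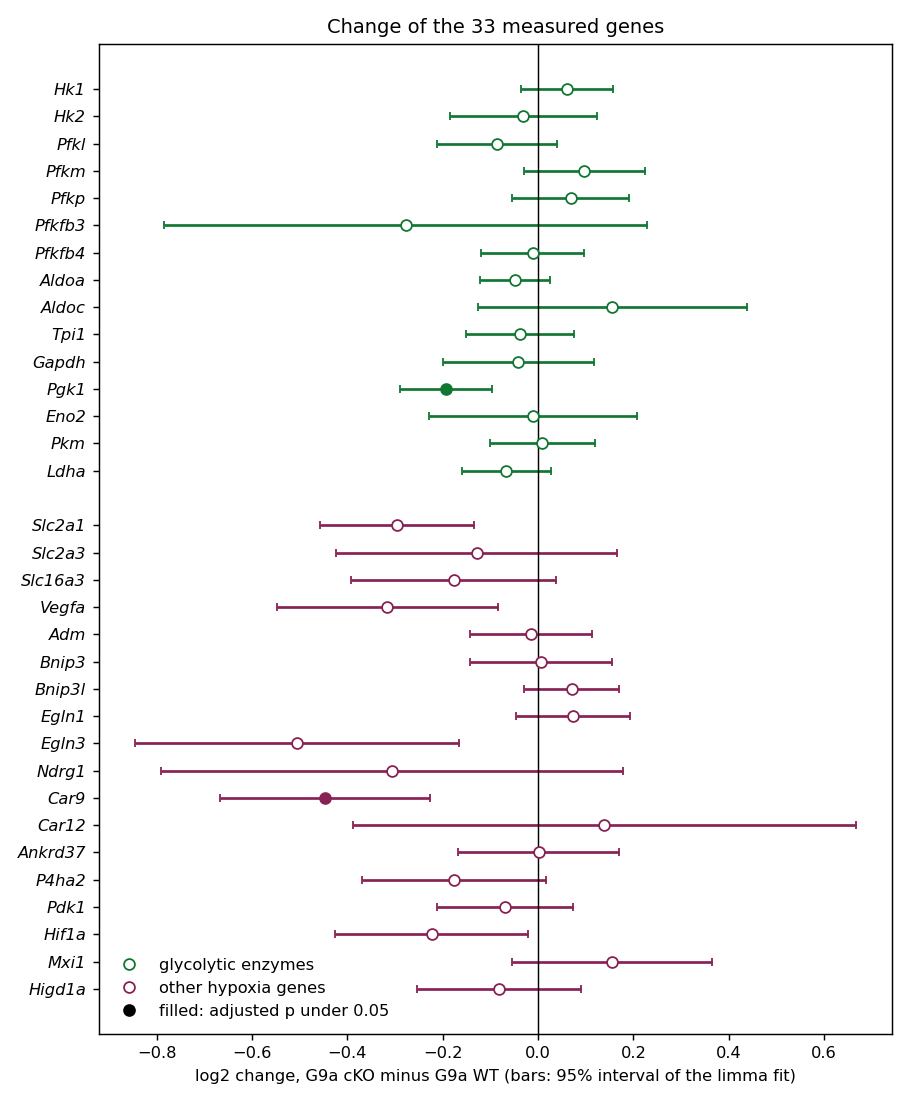
Log2 change of the 33 measured genes (x axis, G9a cKO minus G9a WT, 4 arrays each), with points for the limma estimate and bars for its 95% interval; filled points passed an adjusted p of 0.05. Pgk1 and Car9 are the filled points, at -0.19 and -0.45, and most glycolytic enzymes lie within 0.1 of 0.

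The first steps of glycolysis trap glucose in the cell and prepare it for cleavage. Hk1 and Hk2 encode the hexokinases that phosphorylate glucose. Mean log2 levels of Hk1 were 9.98 ± 0.04 in cKO and 9.92 ± 0.05 in WT (± SD, 4 arrays each, here and below). Hk2 read 9.35 ± 0.15 and 9.39 ± 0.03, with the cKO arrays spread from 9.22 to 9.54 and the WT arrays within 9.36 to 9.43. Neither hexokinase gene passed the threshold (limma adjusted p = 0.627 and 0.930).

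The 3 phosphofructokinase genes, which encode the committed step, did not share a direction. Pfkl had a log2 change of -0.09 (SE 0.06), Pfkm of 0.10 (SE 0.06) and Pfkp of 0.07 (SE 0.06), none past the threshold. A further Pfkp probe set went the other way (log2 change -0.06, SE 0.10), while those of Pfkl kept its direction. Pfkfb3 encodes an enzyme that makes fructose 2,6-bisphosphate, the strong activator of phosphofructokinase, and was the most variable of the glycolytic genes. It read 8.89, 8.43, 7.95 and 7.84 in cKO replicates 1 to 4 and 8.75, 8.87, 8.47 and 8.13 in WT replicates 1 to 4. The highest of all 8 values belonged to a cKO animal and the lowest to another, so the groups overlapped widely (log2 change -0.28, SE 0.23, limma adjusted p = 0.696). Pfkfb4, a related enzyme, read 6.72 ± 0.02 and 6.73 ± 0.02.

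Aldolase splits the hexose, and triosephosphate isomerase interconverts the products. Aldoa, the aldolase gene of most tissues, read 10.93, 10.98, 10.97 and 10.98 in cKO and 11.00, 11.03, 11.05 and 10.97 in WT. The groups overlapped through WT replicate 4 (log2 change -0.05, SE 0.03, limma adjusted p = 0.606). Aldoc read 7.61 ± 0.21 and 7.46 ± 0.23, and Tpi1 read 10.19 ± 0.07 and 10.23 ± 0.07. Neither passed the threshold (limma adjusted p = 0.695 and 0.857).

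Pgk1 encodes phosphoglycerate kinase, the first step of glycolysis that yields ATP. It read 10.74, 10.63, 10.63 and 10.56 in cKO replicates 1 to 4 and 10.82, 10.81, 10.83 and 10.87 in WT replicates 1 to 4. Every cKO array lay below every WT array, and the WT arrays lay within 0.06 of each other. The difference was 1.14-fold (log2 change -0.19, SE 0.04, limma adjusted p = 0.0446), with an exact permutation p of 0.0286 (two-sided), which is the lowest that 4 arrays a group can reach. The second Pgk1 probe set read 10.20 ± 0.15 and 10.34 ± 0.05, and its groups overlapped (log2 change -0.14, SE 0.07).

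The call of Pgk1 was close to the threshold. It held in 1 of 8 fits that left out an array, the one without cKO replicate 1, with log2 changes of -0.23 to -0.17 over those fits and limma adjusted p of 0.0155 to 0.149. Adjusted over all 45141 probe sets in place of genes it was not past the threshold (limma adjusted p = 0.0600).

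None of the remaining measured enzymes of lower glycolysis passed the threshold. Gapdh, which encodes glyceraldehyde-3-phosphate dehydrogenase and is often used as a reference gene, read 12.42, 12.27, 12.20 and 12.26 in cKO and 12.18, 12.21, 12.43 and 12.48 in WT. The WT arrays alone spanned the cKO values. Pkm, the pyruvate kinase gene, read 11.25, 11.15, 11.08 and 11.10 in cKO and 11.07, 11.08, 11.23 and 11.16 in WT, with widely overlapping groups. Eno2, a neuronal enolase gene, read 5.57 ± 0.11 and 5.58 ± 0.20. The limma adjusted p was 0.900 for Gapdh and 0.987 for Eno2, and the log2 change of Pkm was 0.0089 (SE 0.05).

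Ldha encodes the lactate dehydrogenase subunit that favours lactate formation. It read 11.29, 11.20, 11.19 and 11.14 in cKO and 11.24, 11.22, 11.35 and 11.28 in WT. In 3 of 4 cKO arrays it lay below the lowest WT array, while cKO replicate 1 lay among the WT arrays (log2 change -0.07, SE 0.04, limma adjusted p = 0.564). Over the 15 glycolytic enzymes the 95% intervals of the log2 change reached from -0.78 (the lower bound of Pfkfb3) to 0.44 (the upper bound of Aldoc). Without Pgk1, Pfkfb3, Aldoc and Eno2, those of the other 11 reached from -0.212 (Pfkl) to 0.224 (Pfkm). Left out were the called enzyme and those with the widest intervals, after their values were seen. The narrower range follows from that choice.

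None of the 3 glucose and lactate transporter genes of the set passed the threshold, and in 1 of them, Slc2a1, the groups did not overlap. Slc2a1 encodes GLUT1, the main glucose transporter of keratinocytes. It read 10.41, 10.38, 10.25 and 10.14 in cKO replicates 1 to 4 and 10.55, 10.62, 10.73 and 10.45 in WT replicates 1 to 4. All cKO arrays lay below all WT arrays, although cKO replicate 1 and WT replicate 4 were near each other. The difference was 1.23-fold (log2 change -0.30, SE 0.07, limma adjusted p = 0.0652; exact permutation p = 0.0286, n = 4).

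The second Slc2a1 probe set had the same order, at 9.17 ± 0.11 in cKO and 9.52 ± 0.14 in WT, again without overlap (log2 change -0.35, SE 0.08, limma p of 0.0554 adjusted over all probe sets). The first passed the threshold without cKO replicate 1 (log2 change -0.33, limma adjusted p = 0.0494), without WT replicate 4 (-0.34, 0.0265), with arrays shifted to a common median (-0.29, 0.0455) and with array weights (-0.33, 0.0269). Over all 15 alternatives its limma adjusted p ran from 0.0265 to 0.181.

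Slc2a3, the gene of the glucose transporter GLUT3, read 6.07 ± 0.21 in cKO and 6.20 ± 0.25 in WT, and its 4 probe sets did not share a direction. Slc16a3 encodes MCT4, a lactate exporter, and read 5.78 ± 0.09 and 5.96 ± 0.21. Neither passed the threshold (limma adjusted p = 0.776 and 0.486). Pdk1, whose kinase limits the use of pyruvate in the mitochondria by inhibiting pyruvate dehydrogenase, read 8.60 ± 0.06 and 8.67 ± 0.11 (limma adjusted p = 0.739). A further Pdk1 probe set went the other way, at 8.66 ± 0.03 and 8.60 ± 0.04, with all cKO arrays above all WT arrays (log2 change 0.06, limma p of 0.699 adjusted over all probe sets).

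**Figure D2:**
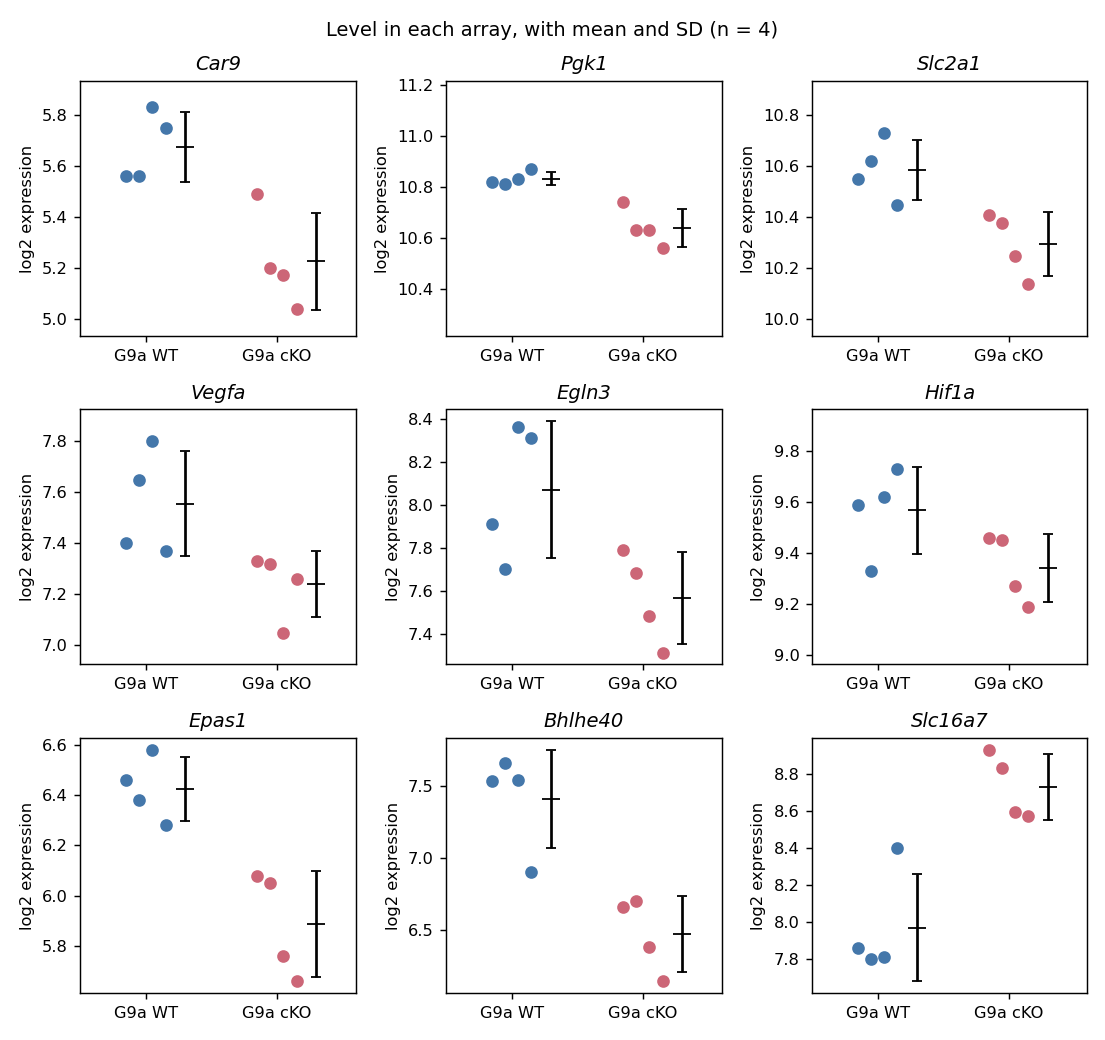
Log2 expression in each array (points, in replicate order from left to right) for 9 genes, with the mean and SD of each genotype in black (n = 4); each y axis spans at least 1 log2 unit. In Car9, Pgk1, Slc2a1, Vegfa, Epas1 and Bhlhe40 every cKO point lies below every WT point, in Slc16a7 every cKO point lies above, and Egln3 and Hif1a overlap.

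None of the 3 genes of the set that sense oxygen or carry its signal passed the test. Hif1a encodes the alpha subunit of HIF-1. It read 9.46, 9.45, 9.27 and 9.19 in cKO replicates 1 to 4 and 9.59, 9.33, 9.62 and 9.73 in WT replicates 1 to 4. WT replicate 2 fell among the cKO arrays and the other WT arrays lay above all of them (log2 change -0.22, SE 0.09, limma adjusted p = 0.301). Its second probe set had a log2 change of -0.30 (SE 0.08), which did not pass either (limma p of 0.134 adjusted over all probe sets).

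Egln3 encodes PHD3, a HIF prolyl hydroxylase that is itself induced by HIF, and had the largest fitted difference of the 33 genes. It read 7.79, 7.68, 7.48 and 7.31 in cKO and 7.91, 7.70, 8.36 and 8.31 in WT. WT replicates 3 and 4 were high, while WT replicate 2 lay within 0.02 of cKO replicate 2. The groups overlapped because cKO replicate 1 lay above WT replicate 2. The difference was 1.42-fold (log2 change -0.51, SE 0.15, limma adjusted p = 0.143), with log2 changes of -0.63 to -0.41 when arrays were left out. The second Egln3 probe set had a log2 change of -0.47 (SE 0.17). Egln1, the gene of the hydroxylase PHD2 that sets HIF levels under normal oxygen, read 10.21, 10.16, 10.12 and 10.18 in cKO and 10.04, 9.99, 10.12 and 10.22 in WT. All cKO values lay within the WT range (limma adjusted p = 0.638).

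Vegfa encodes the vascular growth factor that HIF induces in many tissues. It read 7.33, 7.32, 7.05 and 7.26 in cKO replicates 1 to 4 and 7.40, 7.65, 7.80 and 7.37 in WT replicates 1 to 4. All cKO arrays lay below all WT arrays, by 0.04 between the nearest, but WT replicates 1 and 4 were close to the cKO values. The difference was 1.25-fold (log2 change -0.32, SE 0.10) and did not pass across all genes (limma adjusted p = 0.183; exact permutation p = 0.0286, n = 4). The second Vegfa probe set had a log2 change of -0.35 (SE 0.10, limma p of 0.123 adjusted over all probe sets). Adm, which encodes the vasodilator peptide adrenomedullin, read 5.40 ± 0.04 and 5.42 ± 0.10.

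Car9 and Car12 encode carbonic anhydrases on the cell surface that regulate pH outside the cell, and only Car9 passed the test. Car9 read 5.49, 5.20, 5.17 and 5.04 in cKO replicates 1 to 4 and 5.56, 5.56, 5.83 and 5.75 in WT replicates 1 to 4. All cKO arrays lay below all WT arrays, with cKO replicate 1 near the lowest WT values. The difference was 1.36-fold (log2 change -0.45, SE 0.10, limma adjusted p = 0.0418; exact permutation p = 0.0286, n = 4). All 8 values lie below the array medians, so the probe set was dim.

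Car9 kept its call in 1 of 8 fits that left out an array, again the one without cKO replicate 1, with log2 changes of -0.54 to -0.39 and limma adjusted p of 0.00863 to 0.131. Over all probe sets it had a limma adjusted p of 0.0551. Car12 read 10.21, 9.87, 9.42 and 10.30 in cKO and 9.16, 9.95, 10.27 and 9.85 in WT. Within each genotype its arrays differed by far more than the group means did (log2 change 0.14, SE 0.24, limma adjusted p = 0.900). The difference between the Car9 and Car12 changes was not tested.

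None of the 3 mitochondrial targets passed the test. Bnip3 and Bnip3l encode receptors that mark mitochondria for autophagy. Bnip3 read 9.31 ± 0.11 in cKO and 9.31 ± 0.09 in WT. Bnip3l read 10.32, 10.26, 10.34 and 10.38 in cKO and 10.18, 10.33, 10.26 and 10.27 in WT, with overlapping groups (log2 change 0.07, SE 0.04, limma adjusted p = 0.571). Of the 2 further Bnip3l probe sets, 1 read 8.86, 8.91, 8.99 and 8.93 in cKO and 8.84, 8.84, 8.74 and 8.77 in WT, with all cKO arrays above all WT arrays (log2 change 0.12, SE 0.05, limma p of 0.352 adjusted over all probe sets). The other had a log2 change of 0.20 (SE 0.09), with overlapping groups, and did not pass either. Higd1a, the gene of an inner membrane protein, read 10.05 ± 0.08 and 10.13 ± 0.16 (log2 change -0.08). Its 2 further probe sets went the other way, with log2 changes of 0.01 and 0.08, and neither passed.

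The other stress and matrix targets were not called in either direction. Ndrg1, a stress gene that HIF and differentiation induce in epithelia, ranged from 9.23 to 9.87 in cKO and from 9.24 to 10.25 in WT. WT replicates 1 and 2 were high and WT replicate 4, at 9.24, was close to the lowest cKO array (log2 change -0.31, SE 0.22, limma adjusted p = 0.625). Mxi1, which encodes an antagonist of MYC, was high in 3 cKO arrays, at 9.57, 9.67 and 9.54, above the highest WT array at 9.53, but read 9.33 in cKO replicate 1 (log2 change 0.15, SE 0.09, limma adjusted p = 0.548). P4ha2, the gene of a collagen prolyl 4-hydroxylase subunit, ranged from 6.26 to 6.64 in cKO and from 6.59 to 6.79 in WT, and Ankrd37 read 6.55 ± 0.08 and 6.55 ± 0.14. Ankrd37 encodes an ankyrin repeat protein and is a regular HIF-1 target in many cell types.

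**Figure D3:**
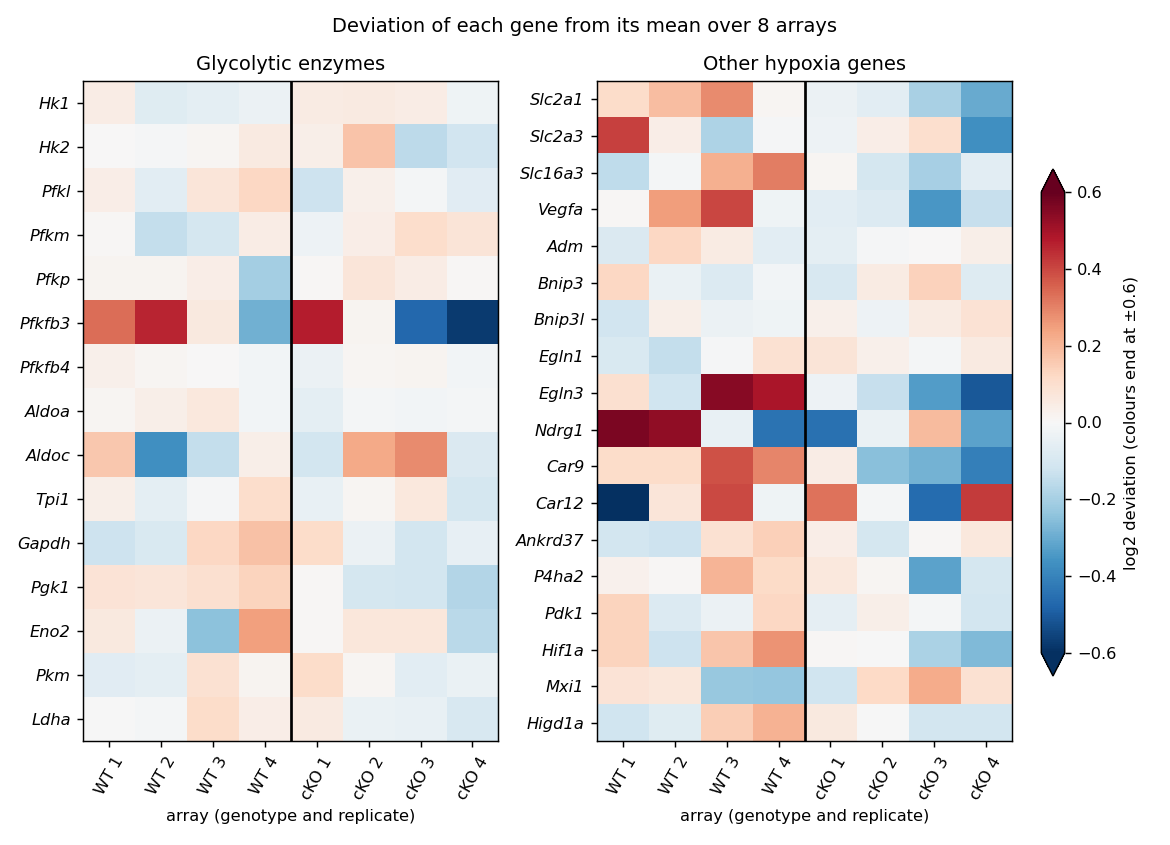
Deviation of each gene from its mean over the 8 arrays (log2, colour, ends at ±0.6), with the 15 glycolytic enzymes on the left, the 18 other hypoxia genes on the right and a line between WT and cKO arrays. Slc2a1 is above its mean in all 4 WT arrays and below it in all 4 cKO arrays, while Pfkfb3, Ndrg1 and Car12 vary as much within a genotype as between them.

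The glycolytic enzymes varied less between animals of a genotype than the other hypoxia genes. The within-genotype SD had a median of 0.075 over the 15 glycolytic enzymes and of 0.14 over the 18 other hypoxia genes, against 0.085 over all genes tested; this difference was not tested. It ran from 0.022 for Pfkfb4 to 0.44 for Car12, and Pfkfb3 (0.41) and Ndrg1 (0.40) were next to Car12. Pfkfb3, Pfkfb4, Slc2a3, Ndrg1 and Mxi1 were each higher in WT replicates 1 and 2 than in WT replicates 3 and 4. The opposite held for the called genes Car9 and Pgk1 and for Egln3, Gapdh, Slc16a3, Higd1a, Hk2, Pfkl, Pkm, Ldha, Egln1, Ankrd37, P4ha2 and Hif1a. Of the 33 genes, 10 had their lowest value in cKO replicate 4 and 10 their highest in WT replicate 4.

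Set together by array, the mean of the other hypoxia genes was ordered by genotype and that of the glycolytic enzymes was not. Of the 18 other hypoxia genes, 12 lay lower in cKO and 6 higher, where 48.5% of all genes lay below 0. By 0.2 or more, 6 were lower (33.3%, against 3.74% of all genes) and 0 higher (5.15%). The order of the mean was therefore not shared by all 18. The mean deviation of the 18 other hypoxia genes was -0.02, -0.03, -0.10 and -0.11 in cKO replicates 1 to 4 and 0.02, 0.04, 0.13 and 0.07 in WT replicates 1 to 4. That of the 15 glycolytic enzymes was 0.03, 0.03, -0.02 and -0.10 in cKO and 0.04, -0.02, 0.01 and 0.03 in WT, so these overlapped. The 38 measured further HIF pathway genes, described below, overlapped too, at 0.028 in cKO replicate 1 and 0.0050 in WT replicate 4. The mean deviation of 6 fibroblast markers was ordered by genotype too, at -0.12 to 0.013 in cKO and 0.039 to 0.12 in WT. The largest log2 change among them was that of Col1a1 (-0.91), while the median of the 6 was 0.00023. That order was therefore not shared across the fibroblast list. No test was made on these means, because the genes were chosen with results known.

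Genes of the immediate early response, which growth factors and tissue handling switch on quickly, also lay lower in cKO. This held for all 14 measured of 15 listed, with a median log2 change of -0.27, where 48.5% of all genes lay below 0. By limma 0 of them passed across all genes, and 12 were lower at an unadjusted p under 0.05 (5.57% of all genes). A further probe set of Egr2 was lower past the threshold (limma p of 0.0395 adjusted over all probe sets). The mean deviation of the 14 genes was -0.10, -0.05, -0.26 and -0.25 in cKO replicates 1 to 4 and 0.28, 0.33, 0.20 and -0.15 in WT replicates 1 to 4. WT replicate 4 therefore stood with the cKO arrays in these genes, but on the WT side in the other hypoxia genes. Proliferation genes spread within both genotypes: the lowest mean deviation was that of cKO replicate 3 (-0.33), the highest that of WT replicate 4 (0.45). The part of either list in the hypoxia values was not tested.

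**Figure D4:**
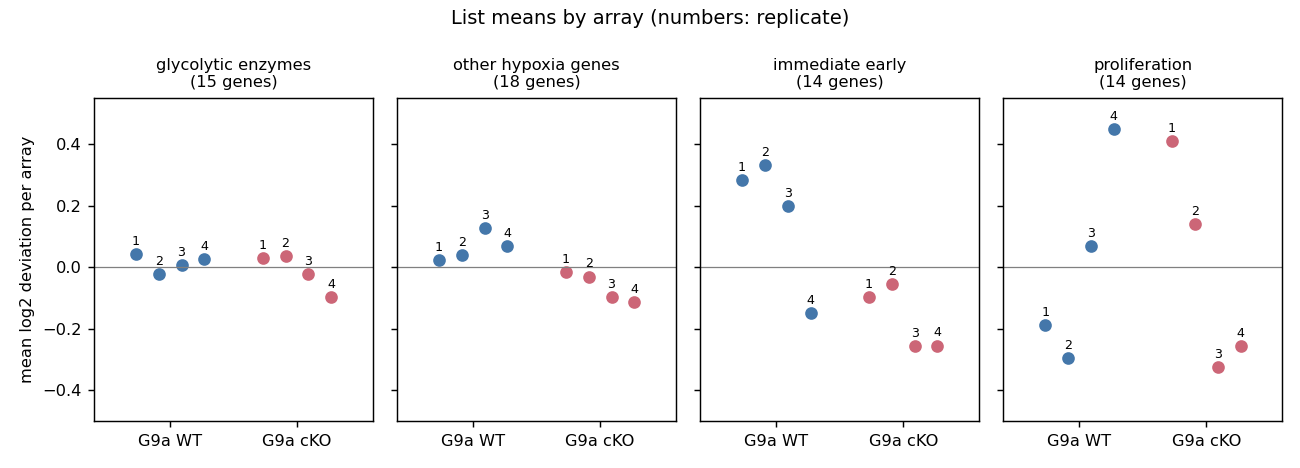
Mean log2 deviation of 4 gene lists in each array (points, labelled by replicate number; y axis in log2 units, 8 arrays). The mean of the other hypoxia genes separates by genotype and that of the glycolytic enzymes overlaps. WT replicate 4 sits with the cKO arrays in immediate early genes, and proliferation genes spread in both genotypes.

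Most fibroblast, macrophage, endothelial and T cell markers lay below the level of the median gene (6.52), whereas some suprabasal and melanocyte markers were high. The mean level of 6 fibroblast markers was 4.75 to 4.89 in cKO and 4.91 to 4.995 in WT, and Col1a1, a collagen gene, fell among them (log2 change -0.91, limma adjusted p = 0.00100). The other 5 fibroblast markers, Pdgfra (3.88 and 3.92), Lum, Dcn, Col1a2 and Col3a1, did not pass. The 7 macrophage markers had a mean level of 4.66 to 4.75 in cKO and 4.71 to 5.04 in WT, and 6 of 7 lay lower in cKO with a median log2 change of -0.18. The mean level of the 5 endothelial markers was 4.97 to 5.09 in the cKO arrays and 4.93 to 5.12 in the WT arrays. Of 5 T cell markers (5.13 to 5.31 and 5.12 to 5.16), Thy1 rose (log2 change 0.57, limma adjusted p = 0.0251) and Cd3e read 3.83 and 3.87. The melanocyte list had mean levels of 6.68 to 6.81 and 6.70 to 7.00, and the 2 measured of 5 erythroid markers 6.70 to 6.91 and 6.56 to 7.00. Among 6 genes of suprabasal epidermis (7.35 to 7.58 and 7.36 to 7.88), Krtdap fell (log2 change -0.63, limma adjusted p = 0.0115). Krt1 (10.02 in cKO and 10.01 in WT) and Krt10 (10.38 and 10.37) were high and did not pass, as was Mitf of the melanocyte list (9.44 and 9.58). Their part in the hypoxia values was not tested.

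Beyond the 33 genes, the HIF pathway held 2 larger falls. Of 38 measured of 40 further HIF pathway genes, 2 fell (5.26%, against 0.836% of all genes) and none rose, and the median log2 change was -0.03. At an unadjusted limma p under 0.05, 6 were lower (15.8%, against 5.57% of all genes) and 2 higher (8.16% of all genes). Epas1 encodes the alpha subunit of HIF-2, the paralog of Hif1a. It read 6.08, 6.05, 5.76 and 5.66 in cKO replicates 1 to 4 and 6.46, 6.38, 6.58 and 6.28 in WT replicates 1 to 4. The groups did not overlap, and the difference was 1.45-fold (log2 change -0.54, SE 0.10, limma adjusted p = 0.0228; exact permutation p = 0.0286, n = 4).

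The dimmer second Epas1 probe set read 5.18 ± 0.09 and 5.48 ± 0.12, also without overlap (log2 change -0.31, SE 0.07, limma p of 0.0631 adjusted over all probe sets). Epas1 passed in 4 of 8 fits that left out an array, with log2 changes of -0.60 to -0.46 and a highest limma adjusted p of 0.0788. The 4 fits in which it passed were those without cKO replicate 1, cKO replicate 2, WT replicate 2 or WT replicate 4.

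Bhlhe40 encodes a transcriptional repressor that HIF and many stress signals induce. It read 6.66, 6.70, 6.38 and 6.14 in cKO and 7.53, 7.66, 7.54 and 6.90 in WT. WT replicate 4 lay between the other WT arrays and the cKO arrays. The difference was 1.92-fold (log2 change -0.94, SE 0.17, limma adjusted p = 0.0165; exact permutation p = 0.0286, n = 4), and it was not past the threshold without WT replicate 1 (0.0554) or without WT replicate 3 (0.0640).

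Other parts of the HIF machinery, picked by role, were not called. Arnt, the common beta subunit, ranged from 8.90 to 9.04 in cKO and from 8.92 to 9.08 in WT, and Vhl, the ubiquitin ligase subunit that removes HIF, read 6.62 ± 0.09 and 6.68 ± 0.06. Egln2, the third prolyl hydroxylase gene, read 9.93 ± 0.06 and 9.95 ± 0.15, and Hif3a 5.84 ± 0.06 and 5.88 ± 0.08. Hif1an, whose product blocks HIF activation, read 9.62 ± 0.10 and 9.42 ± 0.22 (limma adjusted p = 0.436) and was past the threshold only without WT replicate 1 (log2 change 0.31, limma adjusted p = 0.0434).

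Of 19 measured of 23 further glycolysis and transport genes, 1 rose (5.26%, against 1.92% of all genes) and none fell, with a median log2 change of 0.03. At an unadjusted limma p under 0.05, 5 of the 19 were higher (8.16% of all genes) and none was lower (5.57%). The gene was Slc16a7, which encodes MCT2, a transporter of lactate and pyruvate. It read 8.93, 8.83, 8.59 and 8.57 in cKO and 7.86, 7.80, 7.81 and 8.40 in WT. WT replicates 1 to 3 were within 0.06 of each other and WT replicate 4 was nearer to the cKO arrays. The difference was 1.70-fold (log2 change 0.76, SE 0.14, limma adjusted p = 0.0148; exact permutation p = 0.0286, n = 4). It was not past the threshold without cKO replicate 2 (0.0580) or WT replicate 3 (0.0569). Slc16a1, the gene of the related transporter MCT1, read 6.58 ± 0.40 and 6.70 ± 0.13.

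Neither the TCA cycle, which takes up carbon from pyruvate, nor the pentose phosphate pathway, which branches from glucose 6-phosphate, had a gene past the threshold. None of 24 measured of 27 genes of pyruvate entry and the TCA cycle passed by limma, with 2 higher (8.16% of all genes) and none lower (5.57%) at an unadjusted p under 0.05 and a median log2 change of 0.03. The lowest p belonged to Idh3a, a subunit of isocitrate dehydrogenase, at 9.32 ± 0.02 in cKO against 9.16 ± 0.09 for WT (limma adjusted p = 0.156), and to Ogdh, of the oxoglutarate dehydrogenase complex, at 7.50 ± 0.06 and 7.37 ± 0.05 (0.353). Of 5 measured of 7 genes of the pentose phosphate pathway none passed by limma, with 1 lower (5.57% of all genes) and none higher (8.16%) at an unadjusted p under 0.05. Tkt, the transketolase gene, read 11.06 ± 0.11 and 11.20 ± 0.07 (limma adjusted p = 0.296), and Pgls, for the second step of the pathway, 8.19 ± 0.03 and 8.29 ± 0.04 (0.469).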

How the data were processed

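Total RNA of bulge cells (8 Affymetrix arrays, 4 G9a cKO and 4 G9a WT) was amplified from 25 ng with 17 cycles, per the labels' protocols. The authors deposited 1 log2 value per probe set and array. The submitters' processing notes name RMA as the method, without a version. No further normalization was applied, and 0 columns of other samples were present. Of 45141 probe sets, 28898 had 1 gene symbol in the platform annotation, 551 several and 15692 none; those with several were not named.

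Where a gene had several probe sets, the one with the highest mean over arrays stood for it. The 17097 genes were tested with limma 3.58.1 in R 4.3.3 (eBayes with trend, two-sided, no covariates), with Benjamini-Hochberg adjustment over all genes and a threshold of 0.05. Further probe sets were adjusted over all probe sets. On simulated data of 17097 genes the fit recovered 30.0% of seeded log2 changes of 0.25 and 82.0% of those of 0.5. The seeded genes were drawn at random from all genes, whose within-genotype SD had a median of 0.085. That median was 0.075 for the glycolytic enzymes and 0.14 for the other hypoxia genes, and recovery was not simulated for these apart. The titles name an animal for each array but give no animal identifier, so the spread was read, without a check, as that between animals. Array number limits the precision.

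The genes and lists were chosen with earlier results of these data known. All 33 measured genes are named, in full where they passed, did not overlap or had among the 3 highest means of the glycolytic or of the other genes. Other lists name the genes past the threshold or the 2 with the lowest p. Genes outside this rule (all 8 values of Hif1a, Egln3, Car12, Pfkfb3 and Aldoa, single arrays of Ndrg1 and Mxi1, further probe sets of Nfatc1 and Egr2, the Ldha window and HIF machinery by role) were chosen after their values were seen. Same-numbered arrays did not deviate together (r of -0.53 to 0.028), so numbers were not used as pairs.

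The alternatives were a repeated quantile normalization, a shift of arrays to a common median, the dimmest 40% of genes left out, the mean of all probe sets, eBayes without trend, array weights, a replicate block, each array left out and other thresholds. Figures used matplotlib 3.10.9 in Python 3.11.15.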

Additional observations from a re-analysis of the deposited data

Results flagged for a closer look

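In 5 of 76 groups of 4 arrays, 1 array lay far from the other arrays of its genotype; about 1 in 20 groups does so by chance. Hk1 read 9.92 in cKO replicate 4, where the others read 9.99 to 10.01. Pfkp read 10.34 in WT replicate 4, against 10.56 to 10.58. Aldoa read 10.93 in cKO replicate 1, against 10.97 to 10.98. Slc16a7 read 8.40 in WT replicate 4, against 7.80 to 7.86 in the other WT arrays, and Bhlhe40 read 6.90 there, against 7.53 to 7.66. Of these 5, the 3 in WT arrays were all in WT replicate 4, and for Slc16a7 and Bhlhe40 that array lay towards the cKO values.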

How the results depend on the processing

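Of the 33 genes, 24 kept 1 sign under all 15 alternatives tried, and the 9 whose sign changed (Hk2, Gapdh, Eno2, Pkm, Adm, Bnip3, Car12, Ankrd37 and Higd1a) had log2 changes of at most 0.14 in size and no call; of the scalings between arrays, only quantile normalization again turned one, Bnip3. No called gene changed direction. The number of calls among the genes was unstable, and the cause was not tested. Leaving out 1 array gave 67 to 294 genes lower and 190 to 502 higher over all genes, 0 to 1 glycolytic enzymes and 0 to 2 other hypoxia genes lower, and 1 to 2 glycolytic enzymes and 3 to 5 other hypoxia genes without overlap on the lower side, with 0 to 1 of each on the higher side. The median of the other hypoxia genes ran from -0.13 to -0.052 over these fits. With the mean of all probe sets that median was -0.025, 0 glycolytic enzymes were lower and 0 lay lower without overlap; with eBayes without trend, 0 glycolytic enzymes were lower. Car9 was among the dimmest 40% of genes, so 0 other hypoxia genes were lower when these were left out. A common median gave 2 other hypoxia genes lower and array weights 2, with 249 genes lower over all. At an adjusted p under 0.1, 247 genes were lower and 497 higher and 2 other hypoxia genes were lower; under 0.01, 44 and 159, with 0 glycolytic enzymes and 0 other hypoxia genes. With the replicate block, 77 genes were lower and 191 higher, and 0 glycolytic enzymes and 0 other hypoxia genes were lower (limma adjusted p = 0.162 for Pgk1 and 0.136 for Car9). The numbers did not pair the arrays, and 0 of 4 cKO arrays correlated best with the WT array of its own number.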
